A study of Mus musculus with 6 samples.

Results

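The genes described here are 41 translation factors of the mouse: initiation factors (eIFs), the eIF4E-binding proteins 1 and 2, and elongation factors (eEFs). They were taken from a deposited table of 47643 genes by a list of gene symbols, a rule that uses no measured value, and each symbol matched 1 row. All 41 passed the filter on low counts that left 17012 genes for testing. RNA was taken from tumors of the liver in LAP-tTA-tetO-MYC animals on FVB/N, in which the liver-enriched LAP promoter drives the tTA activator and doxycycline holds a MYC transgene off. Every mouse had doxycycline at 100 mg/L in its water up to an age of 4 weeks, MYC switched on for 8 weeks after its withdrawal, and then 2 weeks of vehicle or of GSK3326595 at 50 mg/kg/day, which inhibits PRMT5, an enzyme that methylates arginine. Each group had 3 libraries. Both groups therefore carry active MYC, and no library without it was analysed here, nor were reads of the transgene itself. The labels number the replicates but do not state whether animals were separate or pooled. A p-value then stands only for the spread between these libraries, which may be technical.

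Translation starts when eIF2, loaded with GTP and the initiator tRNA, joins the small ribosomal subunit together with eIF1, eIF1A, eIF3 and eIF5, and eIF4F recruits that complex to the mRNA cap. The eIF4E-binding proteins block cap recruitment by occupying eIF4E, and mTORC1 phosphorylates them to release it. During elongation eEF1A delivers each aminoacyl-tRNA, the eEF1B subunits recharge eEF1A with GTP, and eEF2 moves the ribosome along the mRNA. MYC is known to raise the output of the translation machinery, and many mRNAs of elongation factors belong to the terminal oligopyrimidine class controlled by mTORC1.

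Because MYC binds the E-box CACGTG, the promoter windows of the members were read for it. The windows are those of RefSeq on GRCm38.p6, 250 bases before to 50 after a start, and 31 of the 41 members had at least 1. The E-box, which is its own reverse complement, lay in 9 of these 31 genes (29.0%) and in 11 of their 38 windows (28.9%), against 8.09% of all 27025 genes and 7.15% of all 32851 windows in the table. Among protein-coding genes alone the shares were 8.91% of 17492 genes and 7.84% of 21263 windows. Neither background was matched to the members for level in this tissue or for base content. What part these have in the shares was not tested. Windows can overlap, and the same E-box of Eif5a was counted in more than 1. The 9 genes were Eif3a, Eif3f, Eif3k, Eif4a1, Eif4e, Eif4g1, Eif4h, Eif5a and Eef2. Stretches around 1 upstream E-box are shown for 6 of them, which include the 3 core subunits of eIF4F and the translocase, written 5′ to 3′ on the strand of the gene with the E-box in capitals.
Eif4e (chr3:138527179-138527234, plus strand): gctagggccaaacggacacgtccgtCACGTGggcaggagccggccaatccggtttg
Eif4g1 (chr16:20672648-20672703, plus strand): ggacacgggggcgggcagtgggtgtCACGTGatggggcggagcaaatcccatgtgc
Eif4a1 (chr11:69672582-69672637, minus strand): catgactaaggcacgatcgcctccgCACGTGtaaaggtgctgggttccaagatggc
Eif4h (chr5:134639475-134639530, minus strand): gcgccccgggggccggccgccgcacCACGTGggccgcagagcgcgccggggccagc
Eif5a (chr11:69921430-69921485, minus strand): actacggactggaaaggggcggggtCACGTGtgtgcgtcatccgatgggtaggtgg
Eef2 (chr10:81176563-81176618, plus strand): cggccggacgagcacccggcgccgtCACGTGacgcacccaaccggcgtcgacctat
The E-box began 64 bases before a start of Eif4e, 54 before that of Eif4g1, 189 before that of Eif4a1, 96 before that of Eif4h, 74 before a start of Eif5a and 43 before that of Eef2. A match describes the letters and shows no binding. Of the 9 genes with an E-box 3 had a positive log2 difference between the groups described below, and of the 22 genes with a window and no E-box 9 had one. A C followed by at least 4 pyrimidines, the form of a terminal oligopyrimidine start, stood at the annotated start of 1 member (3.23% of the 31 genes, against 3.01% of all genes). No match says only that these letters are not at the annotated start.

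Libraries held 25814334 to 33621061 counts, and the members took 1.45% to 2.42% of them. The lowest count of any member in a library was 519, so counting error was small beside the spread between libraries. On the first principal component of all genes, with 38.1% of the variance, the position of GSK3326595 replicate 2 was 103.1, and the remaining 5 ranged from -50.2 to 9.37. The tissue expressed all 7 hepatocyte markers that were looked at, such as Alb and Apoa1, with 2 of 7 higher in GSK3326595, and their summed level ranged from 20387 to 48940 CPM (counts scaled to a common library size by TMM) in vehicle and from 10082 to 32604 CPM in GSK3326595. Ptprc, the pan-leukocyte marker, had 23.3 to 44.0 CPM in vehicle and 51.4 to 136 CPM in GSK3326595. The sum of 5 T cell markers, of which 3 passed the filter and all 3 were higher, was 0.733 to 1.26 against 2.63 to 8.32 CPM, and that of 5 stellate and fibroblast markers, all 5 higher, was 64.3 to 221 against 258 to 329.6 CPM, so these 3 sets did not overlap between the groups. In the stellate and fibroblast set only Col1a2 was apart on its own, at 31.2 to 105 against 127 to 185 CPM. Col1a1, Pdgfrb, Lrat and Des each overlapped. Hepatocyte, macrophage, endothelial, B cell, neutrophil and cholangiocyte sums overlapped. None of the markers was at 0 in all 6 libraries. What part the makeup of the tissue has in the values below was not tested, and in bulk RNA fewer cells of a type and less RNA per cell cannot be told apart.

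The abundant elongation factor mRNAs Eef1a1, Eef2 and Eef1b2 were lower in every GSK3326595 library than in any vehicle library, at 0.674, 0.719 and 0.723 of the vehicle mean. Eif4ebp2, encoding a brake on eIF4E, was lower in the same way, at 0.623 of the vehicle mean. Eif4g1, the scaffold of eIF4F, was the 1 member higher in every GSK3326595 library, at 1.17 of the vehicle mean. The other 36 members overlapped between the groups, among them all members that belong to eIF2, eIF2B and eIF3. No member passed the threshold: edgeR's quasi-likelihood test, with Benjamini-Hochberg adjustment over all 17012 genes and a threshold of 0.05, called 0 members and 0 genes of any kind (0%), with a smallest adjusted p of 0.522 among members. DESeq2 called 0 members, against 1.09% of all genes higher and 0.588% lower, and limma-voom called 0 members and 0 genes.

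At an unadjusted edgeR p under 0.05, 0 members were higher and 3 lower (Eif4ebp2, Eef2 and Eef1b2), which is 7.32% of 41 where 3.81% of all genes were lower and 5.45% higher. The groups did not overlap in 1 member higher and 4 lower, or 2.44% and 9.76%, against 6.72% and 7.66% of all genes. These shares of so few genes lie near the background. With 3 against 3 libraries an exact permutation test of a single value cannot give a p under 0.1. A log2 difference, GSK3326595 minus vehicle, was positive in 15 of 41 members (36.6%) and in 53.1% of all genes, and the median difference was -0.095 in members and 0.027 in all genes. Members differed little in size: 3 of 41 (7.32%) had a log2 difference beyond 0.5 in either direction, against 29.6% of all genes. Their median spread within a group was 0.26 on the log2 scale, against 0.39 for all genes tested. Neither comparison was matched for level. The median count of a member in a library was 4689, while the filter used a minimum count of 10. What part level has in these contrasts was not tested.

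**Figure D1:**
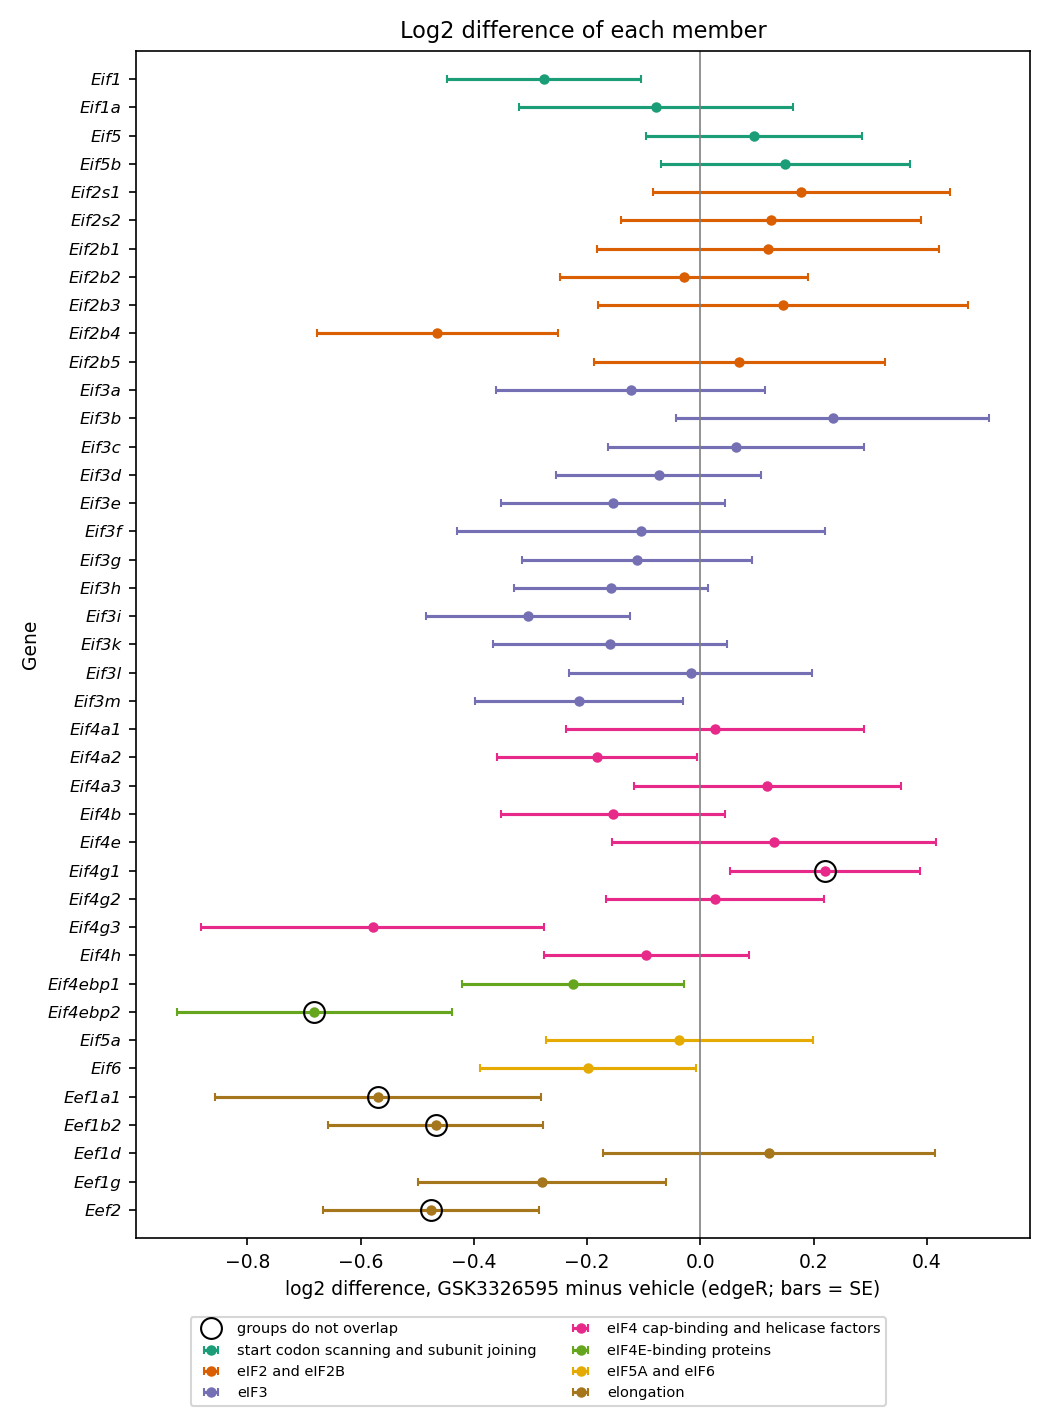
Log2 difference (GSK3326595 minus vehicle, edgeR) of the 41 members, from top to bottom by role; bars are SE, and black rings mark members whose 3 GSK3326595 libraries all lie above or all below the 3 vehicle libraries. Eif4ebp2, Eef1a1, Eef1b2 and Eef2 are ringed on the left and Eif4g1 on the right, while most initiation factors lie within 0.3 of 0.

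The members varied together from library to library. Relative to its own mean over the 6 libraries, 2 of 41 members were above in GSK3326595 replicate 1, 8 in replicate 2 and 36 in replicate 3. The same counts were 35, 17 and 34 in vehicle replicates 1, 2 and 3. The median deviation of the members was -0.32 (log2) in GSK3326595 replicate 1 and 0.22 in GSK3326595 replicate 3, so 2 libraries of the treated group held the extremes of all 6. GSK3326595 replicate 1 was the lowest library for 30 of 41 members and GSK3326595 replicate 3 the highest for 25, while those libraries were the lowest for 20.5% and the highest for 21.3% of all genes tested. The pattern was not confined to the members. Abce1, Gspt1, Etf1 and Farsb, from the further lists below, were also lowest in GSK3326595 replicate 1 and highest in GSK3326595 replicate 3. Other genes of those lists, such as Dars and Hbs1l, were highest in vehicle replicate 1. The median deviation of all genes lay between -0.019 and 0.019 in every library. TMM scaling is meant to bring that median near 0, so it is no independent check. The hepatocyte marker sum was 32604 CPM in GSK3326595 replicate 1 and 10082 CPM, the lowest of all, in replicate 3. Ptprc had 136 CPM in replicate 1 and 51.4 CPM in replicate 3. Their part in the members' levels was not tested.

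Which members were on which side of 0 depended on these libraries. Without GSK3326595 replicate 3 only 2 of 41 members had a positive difference and the median was -0.21. Without GSK3326595 replicate 1 there were 21 and the median was 0.02, and without the library that stood apart, GSK3326595 replicate 2, there were 20 and the median was -0.0093. The count at an unadjusted edgeR p under 0.05 in the lower direction was 6 without GSK3326595 replicate 3, 2 without vehicle replicate 3, 1 without GSK3326595 replicate 2 and 0 without GSK3326595 replicate 1, vehicle replicate 1 or vehicle replicate 2.

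**Figure D2:**
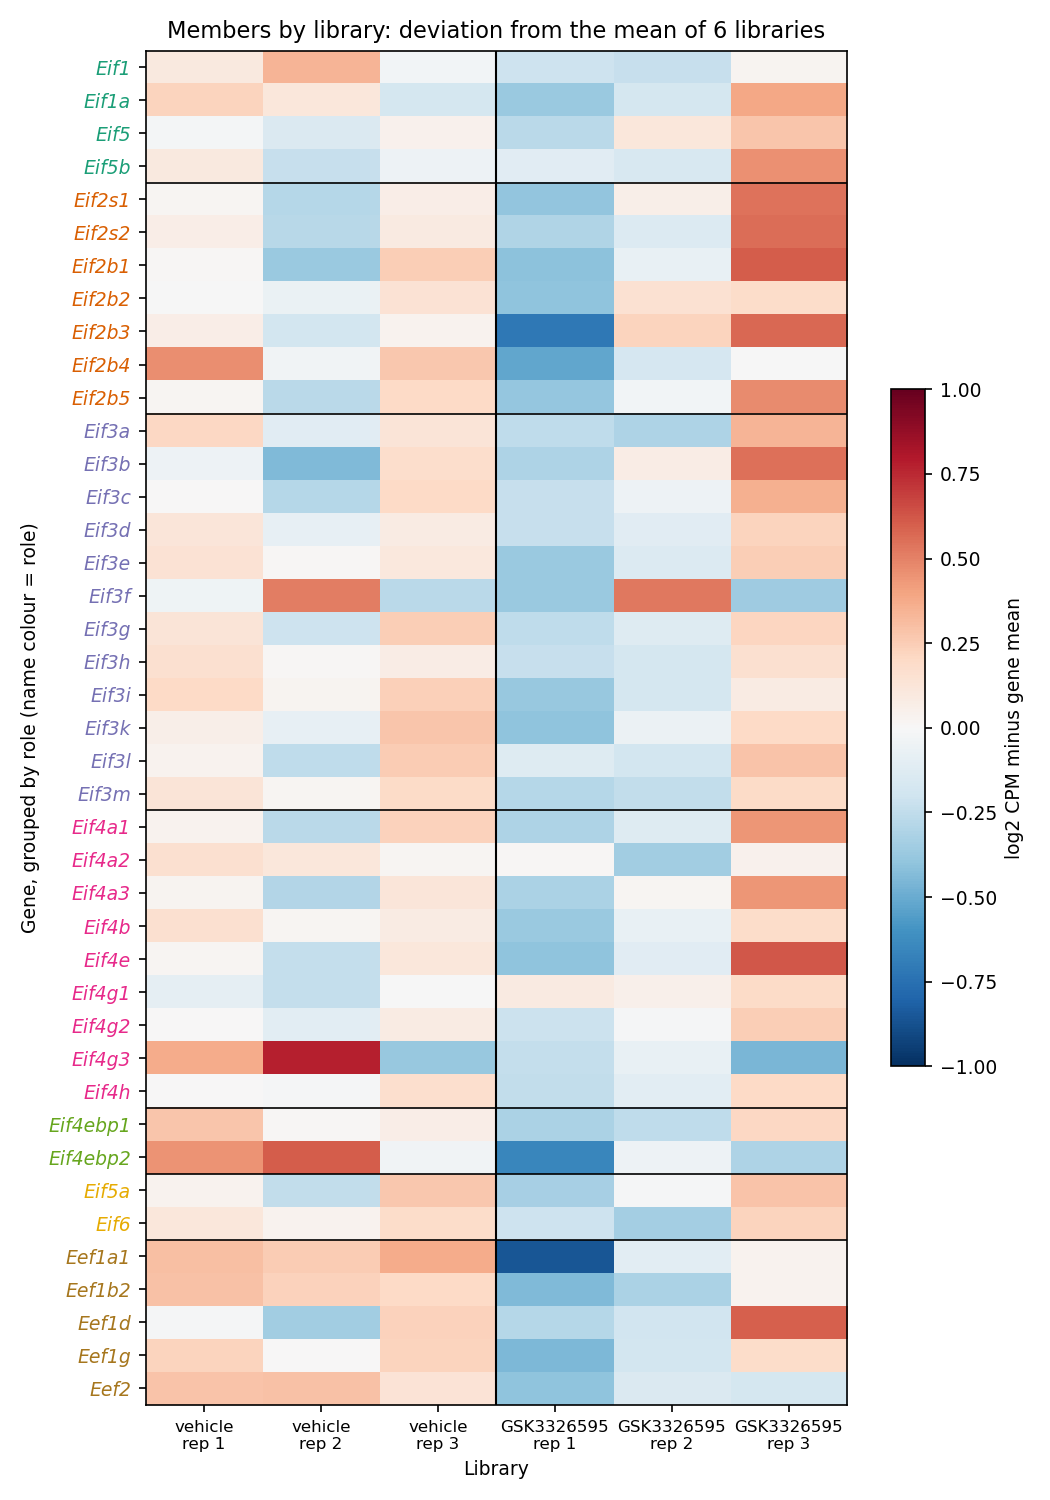
Log2 CPM of each member minus its mean over the 6 libraries, with libraries in columns and genes in rows grouped by role; red is above and blue below the gene's mean. The column of GSK3326595 replicate 1 is red for 2 of 41 genes and that of replicate 3 for 36, while Eif4g3 is highest in vehicle replicate 2 and lowest in GSK3326595 replicate 3.

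Elongation factors and the eIF4E-binding proteins were the roles whose summed level did not overlap between the groups, in the latter by a narrow margin. For the 5 elongation genes the sum was 14275, 13756 and 14439 CPM in vehicle replicates 1 to 3 and 7241, 10684 and 11848 CPM in GSK3326595 replicates 1 to 3, so the highest treated library was below the lowest vehicle library. Eef1a1 set most of this sum, with 10048 of 14439 CPM in vehicle replicate 3 and 4305 of 7241 CPM in GSK3326595 replicate 1. Of all counts of the 41 members it took 30.5% to 43.6%.

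Eef1a1 (ENSMUSG00000037742; chromosome 9, 78478449 to 78489151, minus strand, GRCm38) encodes the carrier of aminoacyl-tRNA. It had 9601, 9281 and 10048 CPM in vehicle and 4305, 7225 and 7965 CPM in GSK3326595. The vehicle values were close together, and GSK3326595 replicate 1 lay far below its group. The means were 9643 ± 385 and 6498 ± 1935 CPM (SD, n = 3 each). The log2 difference was -0.57 ± 0.29 (SE; edgeR adjusted p = 0.589), and -0.35 without GSK3326595 replicate 1. Reads of Eef1a1 can also match its processed pseudogenes, and its deposited values were not whole numbers in any of the 6 libraries, which is how shared reads appear after such estimates.

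Eef2 (chromosome 10, 81176631 to 81182498, plus strand) encodes the translocase, the target of eEF2 kinase. It had 2853, 2863 and 2567 CPM in vehicle and 1764, 2118 and 2072 CPM in GSK3326595. The gap between the groups was wider than the range within either one. The means were 2761 ± 168 and 1985 ± 192 CPM (SD, n = 3 each). The log2 difference, -0.48 ± 0.19 (SE; edgeR adjusted p = 0.527), had a 95% interval from -0.93 to -0.022 without adjustment for the number of genes. It was among the members of least spread within a group (0.12 on the log2 scale), and without each library in turn the difference stayed between -0.49 and -0.40. The deposited values of Eef2 were not whole numbers in 5 libraries.

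Eef1b2 (chromosome 1, 63176825 to 63180486, plus strand) encodes the exchange subunit eEF1B alpha. It had 610.4, 586 and 574 CPM in vehicle and 367, 400.4 and 513 CPM in GSK3326595. GSK3326595 replicate 3 came nearest to the vehicle range. The log2 difference was -0.47 ± 0.19 (SE; edgeR adjusted p = 0.533). Its exons overlap those of Ndufs1 on the other strand and of Gm27390 on the same strand. No source used here says whether strand entered the counting. The deposited values of Eef1b2 were not whole numbers in any of the 6 libraries. Its partner Eef1g, the gamma subunit, overlapped between the groups at 947 ± 80.9 and 780.4 ± 173 CPM (SD, n = 3 each; -0.28 ± 0.22 log2). Eef1d, the delta subunit, pointed the other way at 216 ± 42.3 and 234 ± 84.5 CPM, with the highest value, 332 CPM, in GSK3326595 replicate 3. Its sign turned without vehicle replicate 2 or GSK3326595 replicate 3.

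**Figure D3:**
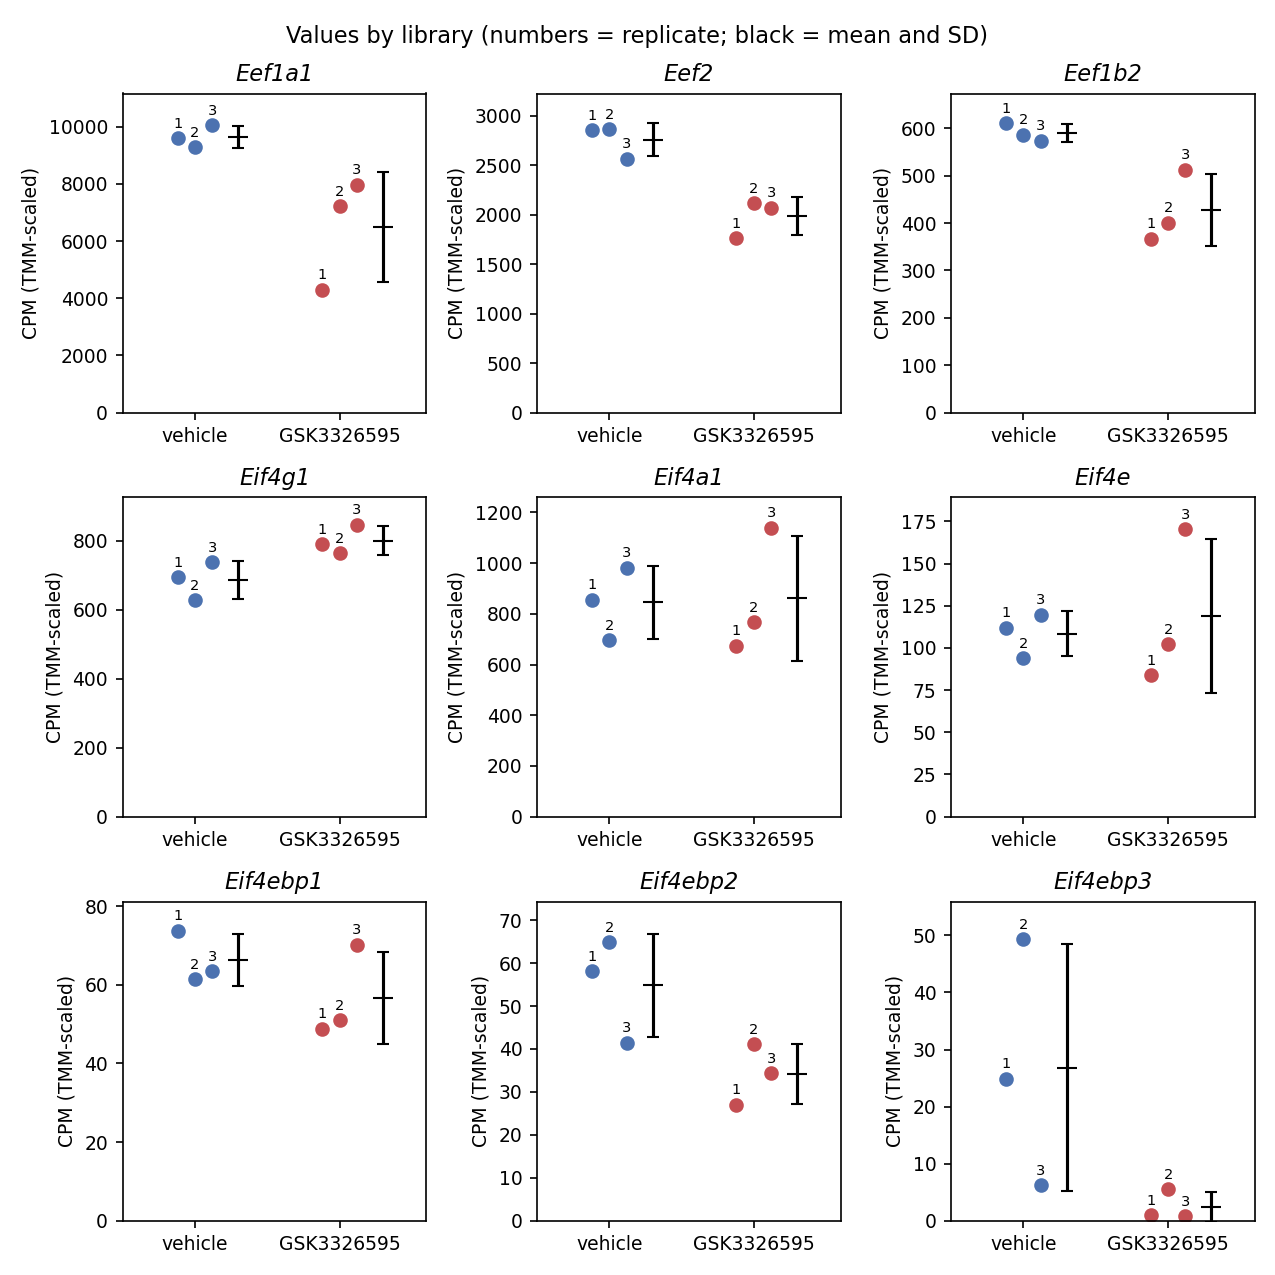
CPM (TMM-scaled, axes from 0) of 8 members and of Eif4ebp3 in each library; numbers give the replicate, and black marks give mean and SD of 3 libraries. Points of Eef1a1, Eef2, Eef1b2, Eif4ebp2 and Eif4ebp3 are lower and those of Eif4g1 higher in all 3 GSK3326595 libraries, and Eif4a1, Eif4e and Eif4ebp1 overlap.

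In the cap-binding group the 3 core subunits of eIF4F, Eif4g1, Eif4e and Eif4a1, had positive log2 differences, none past the test. Their paralogs shared no direction, with Eif4a2 and Eif4g3 negative and Eif4g2 and Eif4a3 positive. Without GSK3326595 replicate 3 the differences of Eif4e and Eif4a1 turned negative, at -0.20 and -0.21. Eif4g1 (chromosome 16, 20668313 to 20692884, plus strand), the scaffold that joins eIF4E, eIF4A and eIF3, had 693, 627 and 738 CPM in vehicle and 789, 764 and 845 CPM in GSK3326595. All treated values were above all vehicle values, though by a small margin. The log2 difference was 0.22 ± 0.17 (SE; edgeR adjusted p = 0.73), and it was 0.16 to 0.32 without each library in turn. It had the smallest spread within a group of the 41 members (0.10 on the log2 scale).

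Eif4e, which binds the cap itself, had 112, 94.0 and 119.7 CPM in vehicle and 83.7, 102 and 170.3 CPM in GSK3326595. The treated libraries surrounded the vehicle ones, and the log2 difference of 0.13 ± 0.29 (SE; edgeR adjusted p = 0.937) had a 95% interval from -0.55 to 0.81. It was 0.33 without GSK3326595 replicate 1 and -0.20 without GSK3326595 replicate 3. These data therefore set no narrow limit on a change in Eif4e.

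Eif4a1 and Eif4a2 encode the near-identical helicases of eIF4F, between which reads may be split. Eif4a1 had 856, 697 and 982 CPM in vehicle and 675, 767 and 1139 CPM in GSK3326595 (log2 difference 0.026 ± 0.26, SE). Eif4a2 had 355, 343 and 321 CPM in vehicle and 321, 250.004 and 327 CPM in GSK3326595 (-0.18 ± 0.18, SE). Both overlapped between the groups. The log2 ratio of Eif4a2 to Eif4a1 within a library was -1.27, -1.02 and -1.61 in vehicle and -1.07, -1.62 and -1.80 in GSK3326595, again with overlap.

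Eif4g3, a second eIF4G scaffold, had 183, 242 and 109 CPM in vehicle and 120.2, 134 and 103 CPM in GSK3326595. Vehicle replicate 3 lay within the treated range, so the log2 difference of -0.58 ± 0.30 (SE; edgeR adjusted p = 0.605) rested on the other vehicle libraries and was -0.30 without vehicle replicate 2. Eif4g3 was highest in vehicle replicate 2 and lowest in GSK3326595 replicate 3, the library in which 25 of 41 members were highest, and the hepatocyte marker sum was also highest and lowest in those 2 libraries. That parallel was not tested. The remaining cap-binding and helicase members lay between -0.15 and 0.12 on the log2 scale: Eif4b and Eif4h, cofactors of the helicase, at -0.15 and -0.096, Eif4g2, a scaffold that does not bind eIF4E, at 0.026, and Eif4a3, a helicase of the exon junction complex, at 0.12.

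The eIF4E-binding proteins were both lower on average. Eif4ebp2 (chromosome 10, 61428491 to 61452661, minus strand) had 58.1, 64.9 and 41.5 CPM in vehicle and 27.0, 41.1 and 34.4 CPM in GSK3326595. The groups touched without overlapping, since vehicle replicate 3 and GSK3326595 replicate 2 were almost equal. The means were 54.8 ± 12.02 and 34.2 ± 7.07 CPM (SD, n = 3 each), and the log2 difference of -0.68 ± 0.24 (SE; edgeR adjusted p = 0.522) was the largest of the 41. Without each library in turn it was -0.81 to -0.54. Eif4ebp1 had 73.7, 61.4 and 63.5 CPM in vehicle and 48.8, 51.0 and 70.2 CPM in GSK3326595. GSK3326595 replicate 3 was above 2 of the vehicle libraries (log2 difference -0.22 ± 0.20, SE; edgeR adjusted p = 0.766).

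Set against their target within each library, the binding proteins overlapped between the groups. The log2 ratio of Eif4ebp2 to Eif4e was -0.95, -0.53 and -1.53 in vehicle and -1.63, -1.31 and -2.31 in GSK3326595. That of Eif4ebp1 to Eif4e was -0.60, -0.61 and -0.91 in vehicle and -0.78, -1.003 and -1.28 in GSK3326595. The mean differences were -0.75 and -0.31. These ratios compare counts, not molecules.

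Another binding protein gene, Eif4ebp3, is no member but showed a far larger gap. It had 24.9, 49.3 and 6.27 CPM in vehicle and 0.967, 5.52 and 0.794 CPM in GSK3326595. The groups did not overlap, but vehicle replicate 3 and GSK3326595 replicate 2 were close. The log2 difference was -3.46 ± 1.04 (SE). DESeq2 called it lower (DESeq2 adjusted p = 0.0103) while edgeR did not (edgeR adjusted p = 0.492), and by edgeR the difference was -4.88 to -2.68 without each library in turn. Its exons overlap those of 1 other gene in the annotation used, and its deposited values were not whole numbers in any library.

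eIF2, which carries the initiator tRNA, and its exchange factor eIF2B showed no common direction, with 5 of 7 genes positive and a median log2 difference of 0.12. Their summed level was 541, 431 and 563 CPM in vehicle and 389, 505 and 721 CPM in GSK3326595, so that the treated libraries held both the lowest and the highest sum. Eif2s1, the alpha subunit that stress kinases phosphorylate, had 134, 108 and 138 CPM in vehicle and 101, 137 and 192 CPM in GSK3326595 (log2 difference 0.18 ± 0.26, SE; edgeR adjusted p = 0.891). Eif2s2, the beta subunit, gave 0.12 ± 0.27.

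Of the eIF2B subunits Eif2b4, the delta subunit, stood apart from the others. It had 60.6, 42.9 and 53.1 CPM in vehicle and 30.6, 39.0 and 43.9 CPM in GSK3326595, with GSK3326595 replicate 3 just above vehicle replicate 2. The log2 difference was -0.46 ± 0.21 (SE; edgeR adjusted p = 0.556). Its exons overlap those of Snx17 on the other strand. Eif2b1, Eif2b2, Eif2b3 and Eif2b5, the alpha, beta, gamma and epsilon subunits, lay between -0.028 and 0.15. Whether Eif2b4 differs from them in its response was not tested.

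The 12 genes of eIF3, the scaffold on the small subunit, were close together. Their median log2 difference was -0.12, and 10 of 12 were negative, in a range from -0.30 to 0.23. Eif3i had 206, 183 and 212 CPM in vehicle and 138, 159 and 189.6 CPM in GSK3326595 (-0.30 ± 0.18, SE; edgeR adjusted p = 0.647). Eif3m had 117, 109 and 122 CPM in vehicle and 87.5, 90.1 and 122 CPM in GSK3326595 (-0.21 ± 0.18, SE). In both, GSK3326595 replicate 3 lay within the vehicle range. Eif3b and Eif3c were the positive ones, at 0.23 and 0.063. Eif3a, Eif3d, Eif3e, Eif3g, Eif3h, Eif3k and Eif3l lay between -0.16 and -0.017, and with total counts only Eif3d and Eif3l were positive as well.

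Eif3f followed another pattern than the rest of eIF3. It had 58.6, 86.1 and 50.2 CPM in vehicle and 46.6, 87.2 and 47.3 CPM in GSK3326595. The second replicate of each group was high and the other 4 libraries low, and the difference between the groups was -0.10 ± 0.33 (log2, SE). Replicate numbers are not known to link animals or batches here.

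**Figure D4:**
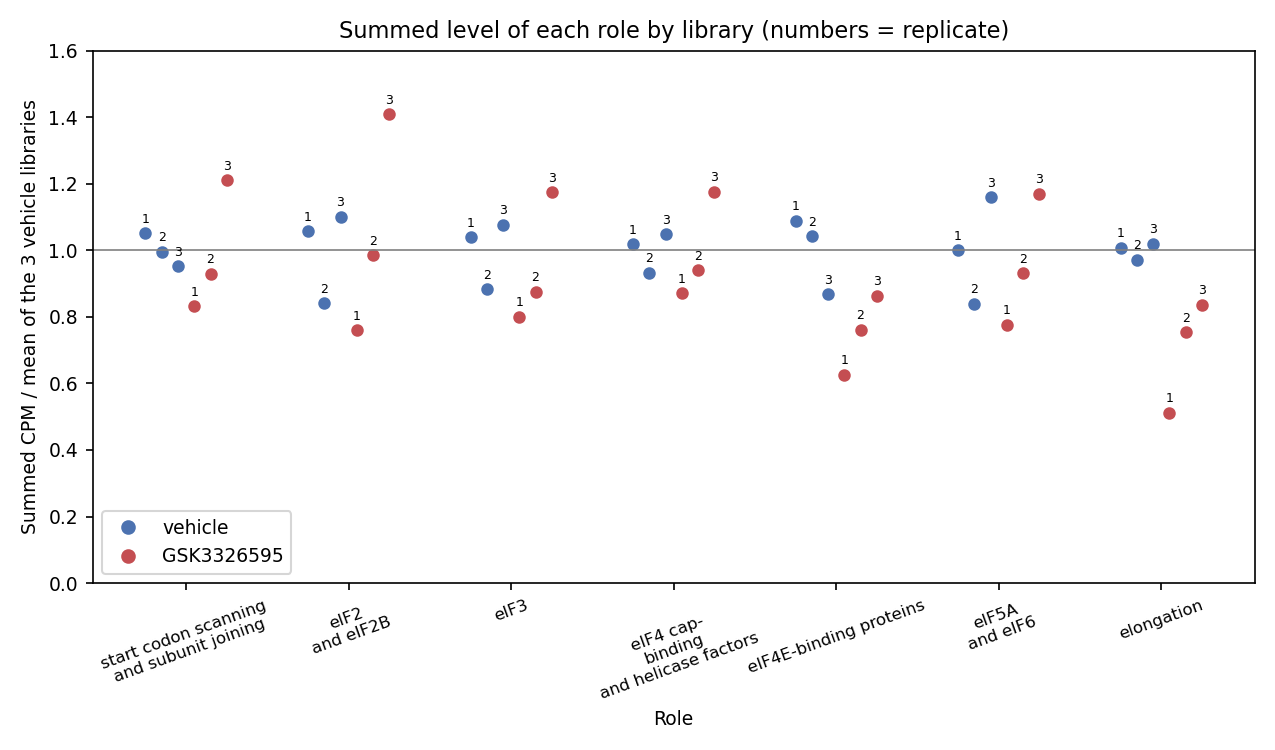
Summed CPM of the members of each role in each library, divided by the mean of the 3 vehicle libraries (grey line at 1); numbers give the replicate. Elongation factors and eIF4E-binding proteins are below every vehicle library in all 3 GSK3326595 libraries, while in the other 5 roles GSK3326595 replicate 1 is the lowest library and GSK3326595 replicate 3 the highest.

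Factors of start codon choice and subunit joining overlapped in all 4 genes. Eif1, which guards start codon selection, had 123, 146 and 113 CPM in vehicle and 99.8, 98.4 and 117 CPM in GSK3326595 (log2 difference -0.28 ± 0.17, SE; edgeR adjusted p = 0.664). Eif5b, the GTPase of subunit joining, had 129, 103 and 117 CPM in vehicle and 112, 108 and 167 CPM in GSK3326595 (0.15 ± 0.22, SE). Eif5, the GTPase activator of eIF2, gave 0.10 and Eif1a, which works with eIF1 in scanning, -0.078.

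Eif5a, the hypusine-bearing factor that helps ribosomes over difficult stretches, had 569, 467 and 669.6 CPM in vehicle and 439, 549 and 674 CPM in GSK3326595. The ranges coincided almost fully (log2 difference -0.037 ± 0.24, SE; edgeR adjusted p = 0.978). Eif6, which keeps the large ribosomal subunit apart until it is mature, had 95.1, 89.9 and 99.8 CPM in vehicle and 76.3, 69.4 and 103 CPM in GSK3326595 (-0.20 ± 0.19, SE). GSK3326595 replicate 3 was above all vehicle libraries for both.

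Per kilobase of exon 4 of the 5 elongation factors, Eif5a and Eif4a1 had the highest levels of the set. Mean vehicle levels were 3868 CPM per kb for Eef1a1, 831 for Eef2, 364 for Eef1g, 239 for Eif5a, 233 for Eef1b2 and 195 for Eif4a1. Eef1d was far below the other elongation factors, at 33.2 CPM per kb. The gap between Eif5a and Eef1b2 was smaller than the spread of Eif5a (569 ± 101 CPM, SD, n = 3). The lowest were Eif2b3 at 5.04 and Eif4ebp2 at 9.48 CPM per kb, and Eif4e, at 18.1, was below both Eif4g1 (94.0) and Eif4a1. Lengths were the union of annotated exons, which lowers the value of a gene with many long transcripts.

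**Figure D5:**
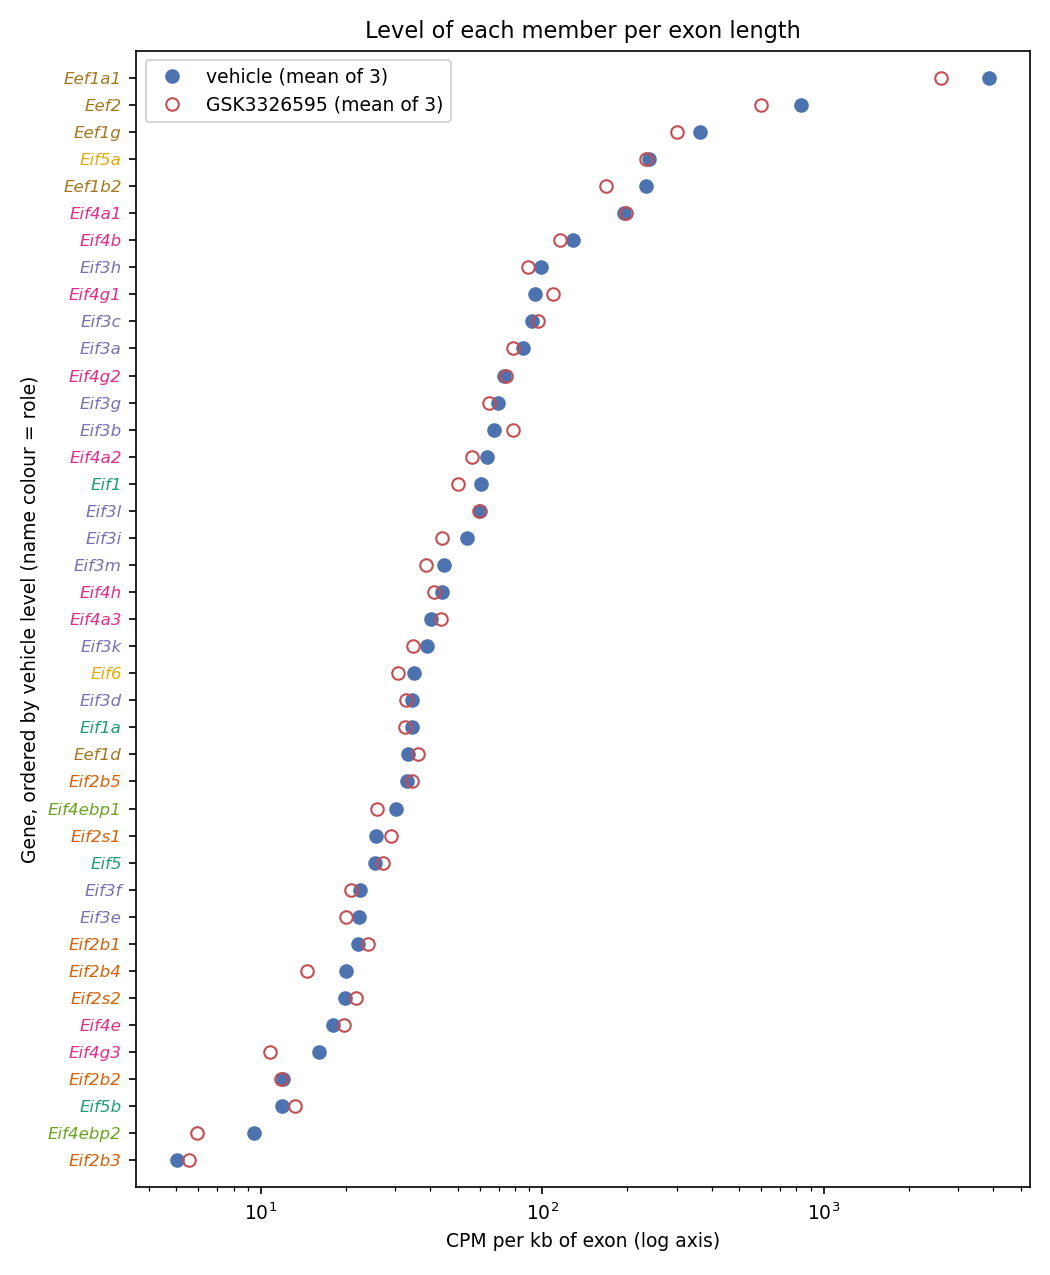
Mean level of each member in CPM per kb of exon on a log axis, ordered by the vehicle mean, with filled points for vehicle and open points for GSK3326595 (3 libraries each). Eef1a1, Eef2 and Eef1b2, near the top, have open points to the left of the filled ones, and the order of the set is otherwise much the same in both groups.

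Further genes of the pathway were read from 6 lists. By edgeR 0 genes of any list passed over all genes, and by DESeq2 Eif4ebp3 alone did. Of all genes tested 53.1% had a positive log2 difference. At an unadjusted edgeR p under 0.05, 5.45% of all genes were higher and 3.81% lower. The counts of each list below are to be read beside these shares. Of 22 other initiation and elongation factors 21 were tested, 11 higher and 10 lower, with 0 higher and 2 lower at an unadjusted p under 0.05 (median log2 difference 0.055). Besides Eif4ebp3, Eif2s3y, the Y-linked gamma subunit of eIF2, had 60.7, 60.5 and 53.7 CPM in vehicle and 48.4, 44.6 and 40.6 CPM in GSK3326595 (-0.39 ± 0.15, SE; edgeR adjusted p = 0.526). Its X-linked counterpart Eif2s3x was more abundant and overlapped between the groups, at 254 ± 34.5 and 264 ± 92.3 CPM (SD, n = 3 each; 0.055 ± 0.27 log2). Eif5a2, a paralog of Eif5a at low level, had 1.73 ± 0.541 and 2.91 ± 0.539 CPM (SD, n = 3 each).

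Among 21 regulators 4 were higher and 17 lower, with a median of -0.12, where 53.1% of all genes were higher. At an unadjusted edgeR p under 0.05, 2 were lower, where 3.81% of all genes were. The list mixes genes that restrain translation with genes that restore it, so its direction has no single meaning. Eef2k, the kinase that inhibits eEF2, had 158, 165 and 83.8 CPM in vehicle and 84.9, 54.7 and 74.6 CPM in GSK3326595 (-0.93 ± 0.31, SE; edgeR adjusted p = 0.522). Vehicle replicate 3 lay in the treated range. Ppp1r15a, the phosphatase subunit that restores eIF2, had 25.5, 33.4 and 11.6 CPM in vehicle and 13.0, 9.21 and 9.24 CPM in GSK3326595 (-1.17 ± 0.40, SE; edgeR adjusted p = 0.522), with the same library out of line. Pdcd4, an inhibitor of eIF4A, had 71.4 ± 0.302 and 96.3 ± 32.1 CPM (SD, n = 3 each; 0.43 ± 0.25 log2).

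Enzymes that modify the factors gave 4 higher and 9 lower of 13 tested (median -0.057). Eef1akmt3, a methyltransferase of eEF1A listed in the table as Mettl21b, had 1.72, 1.77 and 1.04 CPM in vehicle and 0.677, 0.372 and 0.325 CPM in GSK3326595 (-1.71 ± 0.43, SE; edgeR adjusted p = 0.458, DESeq2 adjusted p = 0.0645), at levels near the filter. The 6 genes of termination and recycling were 3 higher and 3 lower (median -0.14), with Hbs1l, a ribosome rescue GTPase, at -0.34 ± 0.17. Of 22 cytosolic aminoacyl-tRNA synthetases and their scaffold proteins 10 were higher and 12 lower (median -0.023), with Dars, the aspartyl enzyme, at -0.38 ± 0.17. Of 9 mitochondrial translation factors 6 were higher and 3 lower (median 0.057), with Mrrf, the recycling factor, at 0.27 ± 0.17.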

How the data were processed

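Stranded total RNA libraries were made from liver tumors, per the labels' protocols. The authors deposited expected counts per gene, which are estimates with no library scaling. The tools RSEM, STAR, cutadapt and Picard and the build mm10 are named, per the submitters' processing notes; the authors' annotation release and counting strand are not given in the sources used here. Values were rounded before use, since 12.3% had decimals (tolerance 0), including values of 18 members. Coordinates and exon lengths came from GENCODE M21 (GRCm38), 1-based; promoter sequences came from RefSeq (GRCm38.p6).

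Groups followed the labels. Genes were kept with filterByExpr (minimum count 10), given TMM factors and tested two-sided on group alone by edgeR (version 4.0.16, R 4.3.3; quasi-likelihood), with Benjamini-Hochberg adjustment over all 17012 genes. Each SE was the size of the log2 difference over the root of its F statistic. The prior count in log2 CPM was 2. Alternatives were DESeq2 1.42.0, limma-voom (limma 3.58.1), other scaling and filters, fits without each library, and a replicate block. The edgeR, DESeq2 and limma-voom tests were also run on simulated counts with known changes. Those counts were drawn independently for each gene, without the shared variation between libraries described above. They therefore cannot vouch for the tests in these data. Members and lists were chosen with earlier results of these data known. Named with every library were Eif4e, Eif4ebp1, Eif4ebp2, Eif4a1, Eif4a2, Eif5a, Eef1a1, Eef2, the 2 members of smallest p per role and members whose groups did not overlap. Of each other list, up to 3 genes of smallest p were named, some by mean or log2 difference alone. Eif2s3x, Abce1, Gspt1, Etf1 and Farsb were named besides, for comparison.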

Additional observations from a re-analysis of the deposited data

How the results depend on the processing

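The 0 members called by edgeR stayed 0 under every scaling, filter and tool tried, with a replicate block, and in the 6 fits that left out a library. Over all genes DESeq2 called 186 higher and 100 lower where edgeR and limma-voom called 0; the cause was not tested. The 3 members lower at an unadjusted p under 0.05 were 3 by DESeq2 and by limma-voom, 2 with RLE size factors, 1 with total counts only, 1 with no filter on low counts, 1 with at least 1 CPM in 3 libraries and 1 under the replicate block, and from 0 to 6 without each library; the cause was not tested. Members with a positive difference numbered 15, and from 2 to 21 without each library, with fewer samples in each fit. With total counts only the median gene lay at 0.12 and the median member at -0.0056, and 20 members were positive.

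Whether replicate numbers pair the samples could not be decided. Deviations of same-numbered libraries correlated at -0.07, 0.07 and 0.32, and not every library correlated best with its own number. With 3 libraries in a group such correlations can neither show nor exclude a shared litter or batch. The block turned no member's direction.

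Of the 41 members 18 kept their sign under all alternatives, among them Eef1a1, Eef1b2, Eef2, Eif4ebp2 and Eif4g1. In these named genes the groups did not overlap, so leaving out 1 library could hardly turn the sign. Their constant sign is therefore no further support. The other 23 turned without at least 1 library. Their log2 differences then ran, over the left-out libraries, for Eif1a -0.31 to 0.070, Eif5 -0.0088 to 0.23, Eif5b -0.058 to 0.32, Eif2s1 -0.072 to 0.38, Eif2s2 -0.17 to 0.29, Eif2b1 -0.20 to 0.32, Eif2b2 -0.11 to 0.14, Eif2b3 -0.13 to 0.43, Eif2b5 -0.17 to 0.25, Eif3a -0.34 to 0.049, Eif3b -0.00066 to 0.43, Eif3c -0.10 to 0.23, Eif3d -0.20 to 0.022, Eif3f -0.42 to 0.15, Eif3g -0.24 to 0.031, Eif3l -0.16 to 0.16, Eif4a1 -0.21 to 0.19, Eif4a3 -0.083 to 0.28, Eif4e -0.20 to 0.33, Eif4g2 -0.086 to 0.13, Eif4h -0.21 to 0.0081, Eif5a -0.18 to 0.14 and Eef1d -0.20 to 0.31. With total counts only, Eif1a became 0.028, Eif2b2 0.059, Eif3d 0.020, Eif3l 0.070 and Eif5a 0.048. With no filter Eif2b2 became 0.0025 and Eif3l 0.017, and with the 1 CPM filter Eif2b2, Eif3l and Eif5a became 0.022, 0.035 and 0.015. The log2 ratios within a library moved by less than their spread under a prior count of 0.5 and without each library.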
